A study of Schmidtea mediterranea with 6 samples.

Results

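The transcripts described here were 3′ ends of the planarian Schmidtea mediterranea whose signal was highest in stem cells, was somewhat lower in the progenitor gate, and was lowest in differentiated cells. These sites, called members below, are 170 of the 5052 polyadenylation sites on a custom Agilent array. Per the labels, RNA came from sexual planarians without treatment, from cells sorted into 3 gates by flow cytometry: X1 (stem cells), X2 (progenitor cells) and Xins (differentiated cells). Each gate was hybridised to 2 one-colour arrays, and the labels call the probed sites distal. Whether duplicate arrays stand for different worms or different sorts is not labelled, so every p-value given covers the variation between these 6 samples alone, and that variation may be technical.

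A site was kept where its brightest probe was well above background on both X1 arrays and on at least 1 Xins array, by the scanner software's own mark. Its level had to be lower in Xins than in X1 by at least 1.5 on the log2 scale. Its X2 level had to lie at or below X1, but by less than 0.5 of the way down to Xins. A level is the log2 processed signal minus the array's 75th percentile, taken over the 1914 probes that passed the background mark on every array, so a level of 0 is at that percentile. The sites were thus chosen from the measured signals of all 3 gates. The levels and differences below therefore describe the sites that it chose and lend no support to the pattern itself.

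In planarians, the dividing adult stem cells, called neoblasts, are the source of all new differentiated cells. The X1 gate holds cells with a replicated genome and is rich in cycling neoblasts. The X2 gate is a mixture of neoblasts that have not replicated their DNA and of early descendants, and the Xins gate holds cells that survive irradiation and are mostly differentiated. In RNA from sorted pools, fewer cells of a type and less RNA per cell cannot be told apart. A polyadenylation site is the place where the nascent RNA is cut and receives its poly(A) tail. In most animals the cut is directed by the hexamer AATAAA or a close variant such as ATTAAA, which lies a short way upstream and is bound by the cleavage and polyadenylation specificity factor. On this array each probe is a stretch of 45 to 60 nt next to such a site.

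The files give every site a contig, strand, start and end, and join the site to transcript models whose description cells all read as unknown. No source used here names a genome build, and positions are those of the files. Gene names, exons and untranslated regions were not assigned, so the neoblast, progenitor and tissue markers listed for a check of the gates could not be matched to probes. The gate names rest on the labels alone. A count of the models showed that 40.6% of the 170 sites were joined to 1 model.

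Among sites well above background on all 6 arrays, with every X1 and X2 array above both Xins arrays, the 4 with the largest fall in Xins show what the probes of the strongest losses look like. The last 30 bases of each probe are given 5′ to 3′, in lower case, with a canonical or common variant hexamer in capitals where it lies in the window searched and within these bases. None of these 4 stretches holds such a hexamer.
Contig158 (plus strand, 162361 to 162366): gttcggattaattacagattttaaatgact
Contig504 (plus strand, 71998 to 71999): gtttattatataattactgtttctcgttta
Contig152 (plus strand, 112920 to 112937): tacagtttattagttggtgttgaattcgtt
Contig9251 (plus strand, 6071 to 6085): ataaagcgtctgcagtttatttgatatcca
The Contig9251 probe does carry AATAAA, but it begins ahead of the bases shown.

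The next 3 sites have the canonical hexamer in the window and represent the commoner layout among sites with a signal. They are the brightest site in X1, a site whose X2 level was nearly that of X1, and a site with one of the largest falls in Xins against X2.
Contig1160 (plus strand, 2913 to 2995): ttgtgaaAATAAAttttgtgttgaataata
Contig752 (plus strand, 65567 to 65599): tataAATAAAtcacagtatttattagtaaa
Contig14 (plus strand, 100842 to 100851): cgAATAAAtgatctggattgttgttcgaaa
The capitals mark AATAAA, which starts 23 nt from the end of the probe at Contig1160, 26 nt at Contig752 and 28 nt at Contig14.

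Depth, on an array, is the signal over background. Each array had between 2515 and 3107 of the 10896 probes well above background, and the 75th percentile lay between 7.53 and 8.70 on the log2 signal scale. It was lower on array 2 than on array 1 of every gate. The arrays lay on 1 slide with 1 scan time, in 2 slide rows: array 1 of X1 and of X2 in row 1, and the other 4 in row 2. Precision is limited by the small number of arrays, 2 for each gate.

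Over the 170 sites the median level in X1 was -0.73, that in X2 was -1.65 and that in Xins was -3.18. The median of the per-site differences was -2.10 in Xins against X1, which is a signal 4.29-fold lower. Across sites this difference ranged from -4.89 to -1.503, or from 29.7-fold to 2.83-fold lower. In X2 against X1 the median difference was -0.73, or 1.66-fold lower, with a range of -2.06 to -0.01. In Xins against X2 it was -1.39, or 2.63-fold lower. The step between X2 and Xins is the larger one at each member by construction of the rule. For comparison, the medians over the 1349 sites tested were -0.17 in Xins against X1, -0.02 in X2 against X1 and -0.27 in Xins against X2.

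**Figure D1:**
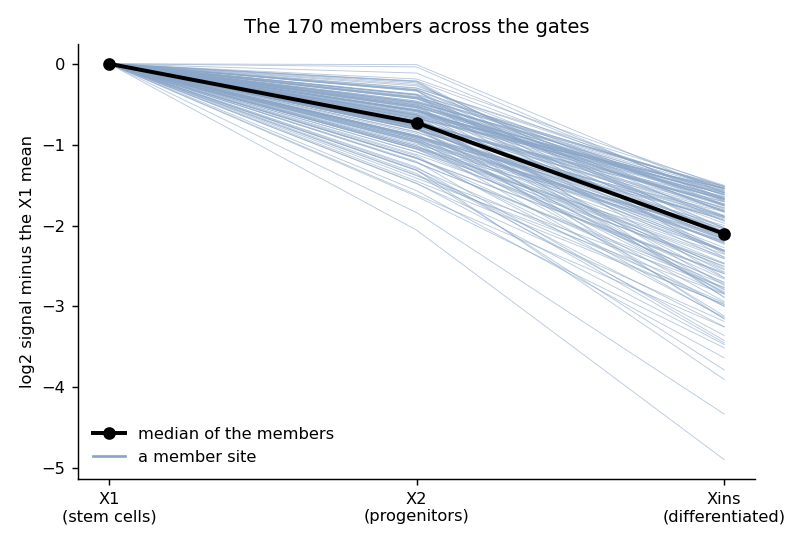
Difference of each of the 170 member sites from its own X1 mean (log2, vertical axis) in the X1, X2 and Xins gates. Thin lines are sites, each the mean of 2 arrays, and the thick line is their median, at -0.73 in X2 and -2.10 in Xins.

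The share of the fall already present in X2, called the X2 position, is the X1 minus X2 difference divided by the X1 minus Xins difference. Its median was 0.358, with quartiles of 0.274 and 0.420. It was under 0.1 at 4 sites, from 0.1 to 0.2 at 20, from 0.2 to 0.3 at 32, from 0.3 to 0.4 at 59 and from 0.4 to 0.5 at 55. The rule admits no site with X2 above X1, so chance spread around 0 appears here only as a lower X2. X2 was within 0.5 log2 of X1 at 40 sites and at least 1 lower at 37. "Kept in X2" is thus a matter of degree. Of the 170 sites, 129 were well above background on both Xins arrays, and 168 on both X2 arrays. At 41 sites the mark was met on 1 Xins array alone, which was array 1 at 40 of them and array 2 at 1. The rule itself required detection on at least 1 Xins array, so sites undetected in Xins were left out beforehand. Without that requirement 208 sites met the rule. The word lost stands here only for a lower signal.

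How far X2 lay below X1 depended on the scaling. When arrays were scaled by 7 spike-in control probes in place of the percentile, the median in X2 against X1 was -0.12, the median X2 position was 0.0556, and X2 was lower than X1 at 107 sites and not lower at the other 63. The median over the tested sites moved by 0.61 in the same step. The median of the 170 sites minus that of the tested sites was -0.70 in X2 against X1 under both scalings, which is fixed by arithmetic, since each scaling shifts an array by 1 constant. In the authors' deposited value table, X2 was lower than X1 at 164 sites and not lower at 6, and with normexp it was lower at 168. The direction in Xins against X1, and in Xins against X2, was lower at all 170 sites under each of the 5 other scalings tried.

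**Figure D2:**
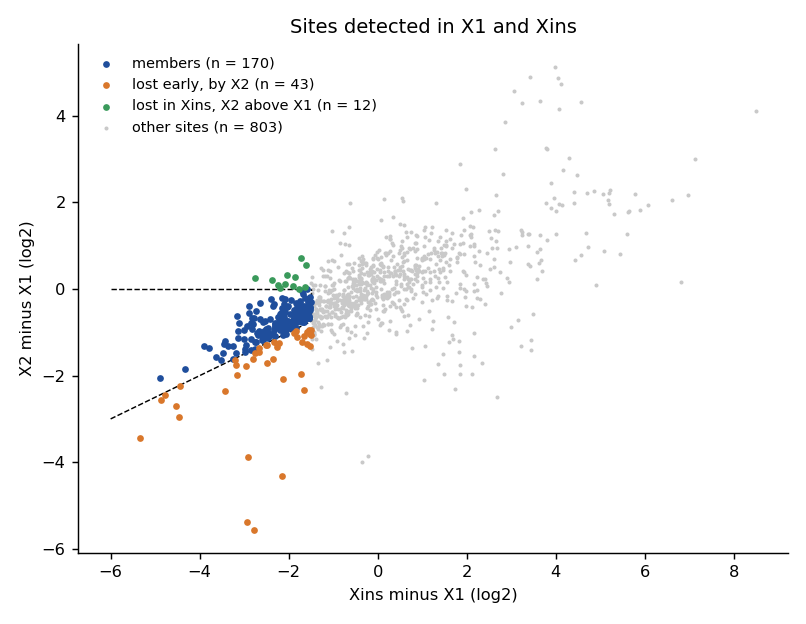
Each point is a site that passed detection, with Xins minus X1 on the horizontal and X2 minus X1 on the vertical axis (both log2, means of 2 arrays), coloured as the 170 members, 43 sites lost early, 12 sites with X2 above X1 or other sites. Dashed lines are the limits of the rule, so the members fill the area between them by construction.

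The detection and fall limits alone held 225 sites, of which the 170 were 75.6%. In 43 others the X2 level lay at or beyond 0.5 of the way to Xins, and in 12 X2 was above X1. The 43 sites had a median difference of -2.36 in Xins against X1, -1.47 in X2 against X1 and -0.87 in Xins against X2, with a median X2 position of 0.618. The limits cut through continuous distributions. The closest site inside the fall limit, on Contig3357, had a difference of -1.503 in Xins against X1, and the closest site outside, on Contig763, had -1.499. At the upper limit of X2 position, Contig199 was inside at 0.499 and Contig6868 (15680 to 15722) outside at 0.504. A different site on Contig6868 (3090 to 3105) is a member. At the lower limit, Contig3736 was inside at 0.0068 and Contig1410 outside at -0.0004.

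The site on Contig158 had the largest fall. It is joined to the transcript model mk4.000158.09.01, among others. Its level was 0.92 and 1.03 on the X1 arrays, -1.15 and -1.01 on the X2 arrays and -4.05 and -3.79 on the Xins arrays. The 3 gates did not overlap, and the signal in Xins was 29.7-fold lower than in X1. The difference in limma's fit was -4.89 (SE 0.36, adjusted p = 0.000438) in Xins against X1 and -2.06 (SE 0.36, adjusted p = 0.0197) in X2 against X1. As everywhere here, the rule used these contrasts, so the p-values describe the size of the difference against the array spread.

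At Contig504 the level was 0.32 and -0.16 in X1, -0.56 and -1.99 in X2 and -3.28 and -4.13 in Xins. The X2 arrays were further apart than those of X1 or Xins there. At Contig152 it was -0.42 and 0.15 in X1, -2.20 and -1.21 in X2 and -4.07 and -3.47 in Xins. At Contig9251 it was 1.67 and 1.04 in X1, 0.12 and -0.69 in X2 and -1.93 and -2.39 in Xins. All of these 3 sites had both X1 arrays above both X2 arrays, and both X2 arrays above both Xins arrays. Their differences in Xins against X1 were -3.78, -3.64 and -3.51.

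The 4 sites brightest in X1 had differences of -1.82 to -1.65 in Xins against X1. Saturated spots at 3 of them (Contig1160, Contig24113 and Contig17924) can compress X1 and so the difference. At Contig1160, joined to the model mk4.001160.00.01 among others, the level was 7.35 and 8.52 in X1, 7.29 and 7.75 in X2 and 5.98 and 6.26 in Xins. The X1 and X2 arrays overlapped, and the Xins arrays lay below them. Its difference was -1.82 in Xins against X1 and -0.42 in X2 against X1.

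Contig24113 (plus strand, 3130 to 3228) and Contig17924 (plus strand, 2448 to 2509) carry an identical probe, whose last 30 bases are shown because one sequence stands for both sites.
Contig24113 and Contig17924: agaatcgcttttcaattgaagaataaagaa
At Contig24113 the level was 7.28 and 8.27 in X1, 6.73 and 7.78 in X2 and 5.69 and 6.53 in Xins. At Contig17924 it was 7.31 and 8.19 in X1, 6.60 and 7.73 in X2 and 5.73 and 6.48 in Xins. The AATAAA in this probe starts closer to the 3′ end than the window searched, so it is not in capitals. At Contig3748 (minus strand, 25201 to 25204) the level was 6.81 and 7.41 in X1, 6.09 and 6.97 in X2 and 5.18 and 5.69 in Xins. Each of these sites had an X1 and X2 overlap, and both Xins arrays were the lowest.

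Within the same limits, 4 sites had the X2 level nearest to that of X1. At Contig3736 (minus strand, 17144) the level was -1.99 and -1.39 in X1, -1.94 and -1.47 in X2 and -3.51 and -3.06 in Xins. The X1 and X2 arrays interleaved there, with a difference of -0.01 in X2 against X1. At Contig752 the level was -1.29 and -2.23 in X1, -1.73 and -1.86 in X2 and -3.31 and -3.60 in Xins. At Contig16415 (plus strand, 10228 to 10252) it was -1.71 and -2.21 in X1, -1.93 and -2.22 in X2 and -3.21 and -4.05 in Xins. At Contig9602 (plus strand, 10816 to 10901) it was 0.84 and 1.24 in X1, 0.35 and 1.31 in X2 and -1.01 and -0.18 in Xins. At all of these sites the X2 arrays overlapped the X1 arrays. Their differences in X2 against X1 were between -0.21 and -0.01, with standard errors of 0.42 to 0.50, so a difference of either sign is within the error. All of the named sites were called lower in Xins than in X1 in limma's fit, with standard errors between 0.36 and 0.58.

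Within the same limits of detection and overlap, the largest falls in Xins against X2 were at Contig158, with -2.84, at Contig14, with -2.53, at Contig5387, with -2.51, and at Contig504, with -2.43. At Contig14 the level was 1.71 and 2.26 in X1, 1.19 and 1.52 in X2 and -1.33 and -1.02 in Xins. At Contig5387 (minus strand, 27628 to 27677) it was -0.86 and -0.40 in X1, -1.26 and -0.77 in X2 and -3.67 and -3.38 in Xins. Both X1 arrays lay above both X2 arrays at Contig14, with a difference of -0.63 in X2 against X1. The arrays of these gates overlapped at Contig5387, with a difference of -0.38. Xins stood apart at both sites.

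**Figure D3:**
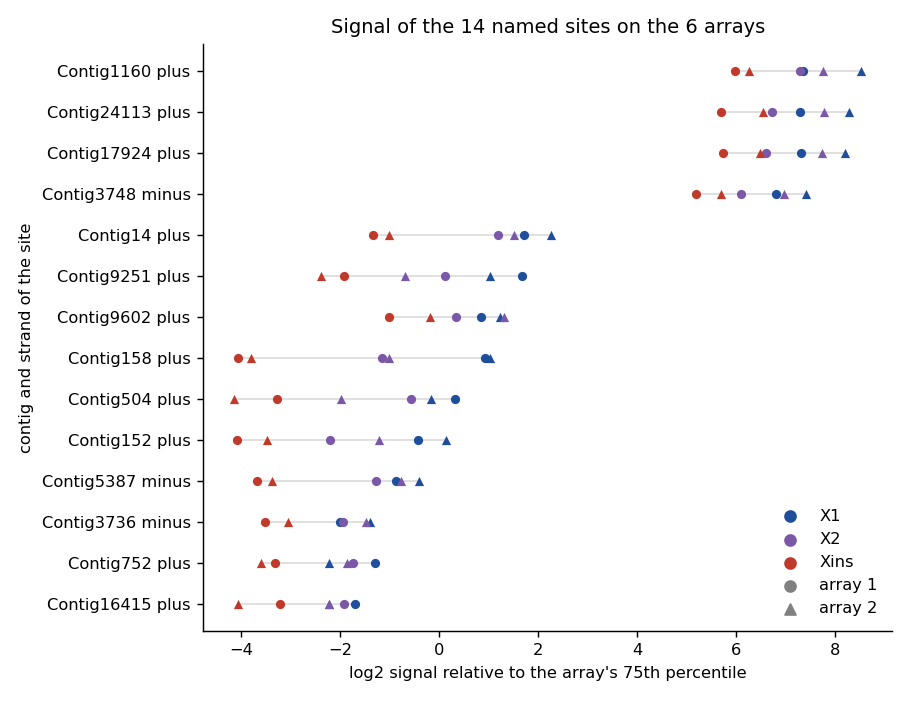
Level (log2 signal minus the array's 75th percentile, horizontal axis) of the 14 named sites, 1 per line, with X1, X2 and Xins in 3 colours, circles for array 1 and triangles for array 2. At each of these sites both Xins arrays lie below the other 4, as the rule for naming them required. At Contig158 they are at -4.05 and -3.79.

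Over all 170 sites, both X1 arrays were above both Xins arrays at every site, where this held for 41.4% of the sites tested. All X1 and X2 arrays were above both Xins arrays at 159, where this held for 29.9%. Both X1 arrays were above both X2 arrays at 113, where this held for 26.3%, and the arrays of these gates overlapped at 57. In limma's fit over 2909 probes, with a Benjamini-Hochberg adjusted p threshold of 0.05, 162 of the 170 were called lower in Xins than in X1, against 24.9% of the sites tested. Lower in Xins than in X2 were 76, against 12.0% of the sites tested, and lower in X2 than in X1 were 2, against 1.56%. These shares cannot be read as results about the sites, because the rule chose them on the same contrasts.

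The 2 sites called lower in X2 than in X1 were Contig158 and Contig776 (difference -1.62, SE 0.35, limma adjusted p = 0.042). At an unadjusted p under 0.05 in limma's fit, the count in X2 against X1 was 33. The same count over all sites tested was not made, and the rule fixed the sign of this contrast. This count is therefore not a result about the members. A p above the threshold does not show that X2 equalled X1, since the median standard error was 0.45. Leaving out an array leaves its gate with 1, whose spread is then taken from the other gates. Counts of calls from these fits therefore cannot be read as results, and a range of them is listed only in the closing section. The median difference in Xins against X2 stayed between -1.56 and -1.37 without an X2 or Xins array. In X2 against X1 it ranged from -0.86 to -0.64 without an X1 or X2 array, and was -0.73 without a Xins array. With slide row as a block the calls were 160 in Xins against X1, 6 in X2 against X1 and 107 in Xins against X2. Over the 1349 sites tested, the same block gave 368, 45 and 209 lower in these contrasts. With the replicate number as a block, calls rose in each contrast, most of all in X2 against X1, at the members and over all sites tested. Those counts are in the closing section, since the labels do not say that a number marks a shared batch. On the arrays of row 2 alone the median difference was -2.17 in Xins against X1 and -0.67 in X2 against X1, and row 1 held no Xins array.

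Arrays of one gate differed at a typical site by a median of 0.46 in X1, 0.62 in X2 and 0.58 in Xins. On array 1 of each gate alone, the median difference was -2.07 in Xins against X1 and -0.76 in X2 against X1. On array 2 alone these were -2.15 and -0.67. The median X2 position was 0.368 on array 1 and 0.339 on array 2.

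The rule was also applied to one array per gate, and the sites it chose were read on the other arrays. On array 1 alone it chose 145 sites, of which 129 were among the 170. On the array 2 set, all 145 were lower in Xins than in X1, 127 by at least 1.5, and 104 met both limits. X2 was above X1 at 12 of them, and the X2 position was 0.5 or more at 21. The median difference in Xins against X1 was -2.26 on the unused arrays and -2.16 on those used for the choice, and the median X2 position was 0.331 on the unused arrays and 0.352 on those used. The unused arrays still had a part in picking each site's brightest probe and in the scaling. Duplicate arrays may also be technical, so these values are a description and no replication of the pattern. On the means of all arrays, 609 of the 1028 sites passing detection were lower in Xins than in X1 by any amount. The fall was at least 1.5 at 225 of the 1028, and 170 met both limits. These shares were not made on the unused arrays alone. On array 2 alone the rule chose 122 sites, and on the array 1 set 121 of these were lower in Xins, 105 by at least 1.5, and 87 met both limits. X2 was above X1 at 7, and the X2 position was 0.5 or more at 16.

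**Figure D4:**
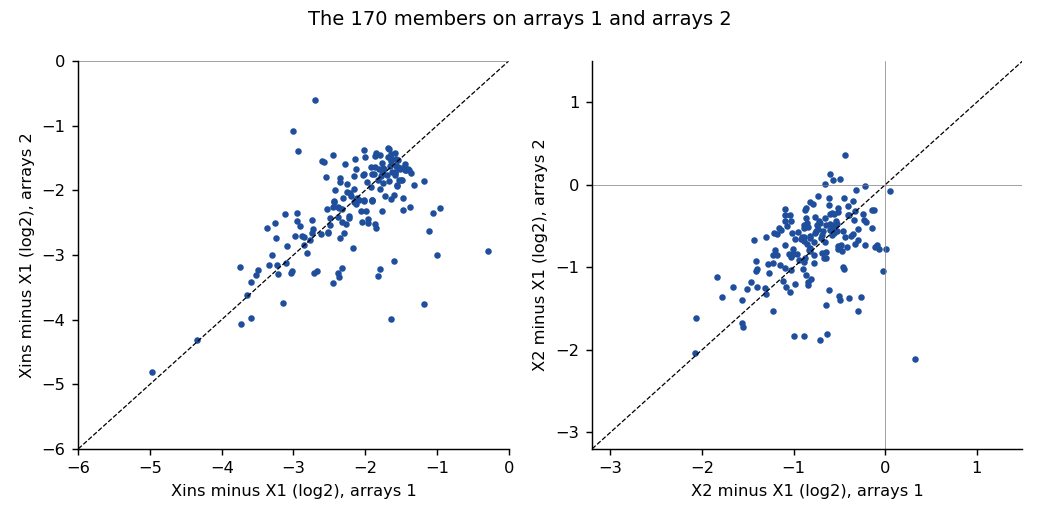
Each point is 1 of the 170 members, with the difference on array 1 of each gate on the horizontal and on array 2 on the vertical axis (log2), for Xins minus X1 on the left and X2 minus X1 on the right. The dashed line marks equal values, and the medians were -2.07 and -2.15 on the left and -0.76 and -0.67 on the right.

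At 38 of the 170 sites the array holds a second probe of another sequence, which the rule used only in that it was the dimmer one. Of these, 31 passed the detection rule, and all 31 were lower in Xins than in X1. The fall was at least 1.5 at 25, and the X2 position was between 0 and 0.5 at 27, with X2 above X1 at the other 4. Their median difference in Xins against X1 was -1.98, against -2.09 for the brightest probes of the same sites. Second probes that failed the detection rule had differences from -2.65 at Contig5387 to 0.18 at Contig8385. Contig8385 was the only site of these not lower in Xins. Its second probe was well above background on no array, while its brightest probe had a level of 6.65 in X1. Second probes at sites outside the members were not counted. At Contig1160 the second probe had mean levels of 7.88 in X1, 7.45 in X2 and 6.14 in Xins, and X2 was again nearer to X1. These probes come from the same RNA, so they check the probe and not the sample.

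The sites are not all independent. They carry 165 distinct probe sequences, and 10 pairs of sites share a run of at least 25 bases, 5 of them the whole probe. The largest gap in such a pair was in Xins against X1, with -3.16 at Contig14 and -1.89 at Contig393. Another pair had -2.07 at Contig199 and -2.94 at Contig254 (133200 to 133203). The whole probe of a member was also at 2 sites outside the members, with -3.02 on Contig37968 and -1.42 on Contig389. Within 5 kb of a member, 4 neighbouring sites were tested, and 2 of these were lower in Xins. The neighbour on Contig430 was well above background on all 6 arrays, with a difference of -0.18, and so was that on Contig683, with 3.59. The neighbour on Contig1386 was well above background on 5 arrays, with a difference of 2.16. The neighbour on Contig2905 was well above background on 2 of the 6 arrays, so no size is given for it. Of the 4 neighbours, 3 lay on the opposite strand.

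In 4 groups of 42 or 43 sites ordered by their X1 level, from dim to bright, the median difference in Xins against X1 was -2.03, -2.10, -2.14 and -1.92. The median X2 position was 0.315, 0.323, 0.373 and 0.374. In the dimmest group 7 of 43 sites were well above background on both Xins arrays, while all 43 of the brightest were. The size of the fall at dim sites thus rests on Xins signals of which 1 was mostly not well above background.

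Sequence was not used by the rule. Sites were called narrow where the recorded cut positions span at most 15 nt, and the hexamers were searched on the sense strand starting at a distance of 10 to 35 nt ahead of the end of the probe. Of the 170 sites 103 were narrow, or 60.6%, against 52.3% of the sites tested and 80.1% of all sites. Among narrow sites, 48 of 103 held AATAAA, which is 46.6%, against 38.5% of the tested and 45.7% of all. A further 8 held ATTAAA alone, and 47 held neither. Over all spans, AATAAA was found at 76 of the 170. The share thus lay above that of the tested sites and close to that of the whole array, and no test was run on it. AATAAA lay anywhere in the probe at 84 of the 170. A hexamer absent from the window says only that these letters are not in the window.

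Among the 47 narrow sites with neither hexamer, 20 held AATATA, a variant chosen for counting after the sequences were seen. That is 42.6%, against 30.3% of the tested narrow sites with neither hexamer and 31.8% of all. As a share of all narrow sites, AATATA without either hexamer was in 19.4% of the members, 17.3% of the tested and 14.6% of all. The 3 sequence elements counted next are ones that RNA-binding proteins use in animals, searched anywhere in the probe on the sense strand. The Pumilio-type element TGTANATA was in 3.53% of the members, 2.52% of the tested and 2.34% of all sites. The AU-rich core ATTTA was in 24.1% of the members, 28.2% of the tested and 34.5% of all. The cytoplasmic polyadenylation core TTTTAT was in 17.6% of the members, 20.1% of the tested and 22.5% of all, and 6 members held both it and ATTTA. On the opposite strand TGTANATA was in 1.18% of the members, 0.593% of the tested and 0.990% of all. ATTTA was there in 50.6% of the members, 42.3% of the tested and 49.8% of all, and TTTTAT in 12.9% of the members, 14.8% of the tested and 20.7% of all. The median GC content was 25.9% for the members and for the tested sites, and 21.6% for all sites.

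The median difference in Xins against X1 was close in the hexamer classes. It was -2.18 for sites with AATAAA, -2.12 for sites with ATTAAA alone and -2.05 for sites with neither. It was -2.14 for the 103 narrow sites and -2.08 for the 67 wide ones.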

How the data were processed

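RNA was captured with oligo-dT, amplified and labelled with one dye, per the labels' protocols. The deposited scanner tables hold intensity, made with Feature Extraction 11.5.1.1 per the file headers. The processed signal is background-subtracted and replaced by a surrogate at 55.5% of spots. The authors also deposited a value table, read as natural log from its slope against the scanner signal and converted to log2. No source used here states its normalization, and the submitters' processing notes name limma. Its X2 array 1 column followed the scanner signal less closely than the others (r = 0.987).

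Probes with no unmarked spot on an array (6) were left out, and spots of a probe were averaged. limma 3.58.1 in R 4.3.3 was fitted to all 6 arrays (lmFit, eBayes), with Benjamini-Hochberg adjustment over the 2909 probes that passed the background mark on the 2 arrays of some gate. The fit was tested on simulated data with noise drawn independently for each array. That test does not cover same-numbered arrays deviating together, as they did here. Sites were named by rule: the largest falls, the brightest in X1, the nearest in X2 to X1 and those next to each limit. The members, lists and rules were chosen with earlier results of these data known. Alternatives covered scaling, background correction (normexp, offset 50), the authors' table, probe choice, detection, thresholds, blocks and each array left out.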

Additional observations from a re-analysis of the deposited data

How the results depend on the processing

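The limits here are 2 arrays per gate, dim Xins signals and an unknown genome build. The median in Xins against X1 stayed below 0 under each alternative listed. The number of sites meeting the rule, 170, was 48 with normexp, 86 in the authors' table and 97 at a fall of at least 2, and ranged from 115 to 176 with an array left out. On slide row 2 alone it was 176. The other settings gave counts within 1.5 times. A similar count did not mean the same sites. Of the 170, 107 still met the rule with spike-in scaling, and 96 to 140 with an array left out.

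For the 170 sites, the median in Xins against X1 (-2.10) was -2.15 with the percentile over all probes, -2.24 with quantile normalization, -2.17 with spike-in scaling, -1.25 with normexp, -1.62 in the authors' table, and -2.17 on slide row 2 alone, an alternative chosen after seeing the data. With an array left out it ranged from -2.17 to -2.08. With no requirement on Xins detection the rule chose 208 sites, whose median was -2.17. In X2 against X1 (-0.73) it was -0.87, -0.12, -0.37 and -0.54 with the percentile over all probes, spike-in scaling, normexp and the authors' table, and -0.86 to -0.64 with an array left out. In Xins against X2 (-1.39) it was -1.31, -1.498, -2.07, -0.66, -1.06 and -1.45 with the percentile over all probes, quantile normalization, spike-in scaling, normexp, the authors' table and the mean of a site's probes, -1.56 on slide row 2 and -1.56 to -1.37 with an array left out. The X2 position (0.358) was 0.405, 0.335, 0.0556, 0.418, 0.332 and 0.336 in the same order, 0.320 on slide row 2 and 0.287 to 0.372 with an array left out.

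Calls in Xins against X1 (162) were 71 with spike-in scaling, 102 in the authors' table and 67 with no filter on dim probes. Over the 1349 sites tested, the main fit called 336 lower, and these settings called 147, 178 and 142. Calls in X2 against X1 (2) in limma were 0 with spike-in scaling, in the authors' table and with no filter. Over the 1349 sites tested the main fit called 21 lower, and these settings called 4, 16 and 13. At an unadjusted p under 0.05 in limma, the members counted were 0, 15 and 5. That unadjusted count was not made over all sites tested, so it cannot be read as a result about the members. At the adjusted threshold, members called were 13 with normexp, 6 with slide row as a block and 4 with an intensity trend. The sites called lower were 28, 45 and 28. With only probes well above background on all 6 arrays, 1 of 129 members was called, against 11 of 888 sites. Calls in Xins against X2 (76) were 14 with spike-in scaling, 18 in the authors' table, 5 with no filter and 17 to 54 with an array left out. Over the 1349 sites tested the main fit called 162 lower in Xins than in X2. Spike-in scaling, the authors' table and no filter called 47, 42 and 15. The count fell over all sites tested as well, so its drop cannot be read as a property of the members. With an array left out, its gate takes its spread from the other gates, so that range of counts cannot be read as a result. The cause of these changes was not tested.

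With the replicate number as a block (replicate block), calls were 169 in Xins against X1, 63 in X2 against X1 and 161 in Xins against X2, where 515, 194 and 439 of the 1349 sites tested were called lower in the same contrasts. Same-numbered arrays deviated together, with correlations of 0.604 between X1 and X2, 0.487 between X1 and Xins and 0.440 between X2 and Xins. The labels do not say that a number marks a shared batch, so the unblocked calls stand in the report.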
